A study of Mus musculus with 12 samples.

Results

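The first day of muscle differentiation was examined in C2C12 cells, a mouse myoblast line. The 6 arrays compared, of 12 in the series, were the 3 arrays titled as 24 h myotubes and the 3 arrays titled as 95% confluent myoblasts. The remaining arrays hold 3 samples of 48 h myotubes and 3 samples of 50% confluent myoblasts, and they were used for a second set of comparisons. All groups are the unmodified line. Per the labels' protocols, myoblasts grew in DMEM with bovine calf serum, and myotubes were made by moving fully confluent myoblasts into DMEM with heat-inactivated horse serum, insulin and transferrin. The 95% confluent myoblasts are therefore not the cultures from which differentiation began. The last step to full confluence, the lower serum of another species, the added hormones and 24 h of differentiation cannot be told apart in this comparison. Nothing in the labels ties the replicate numbers to separate cultures, and p-values here cover the spread between these samples, which may be technical.

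Skeletal myoblasts carry MyoD and divide while serum is present. When serum is withdrawn they switch on myogenin, leave the cell cycle, align and fuse, and begin to build sarcomeres, the repeating contractile units in which myosin thick filaments slide past actin thin filaments anchored at Z-discs. The first day in low serum covers myogenin induction, cell cycle exit and the first contractile transcripts. A whole culture was measured on each array, so more differentiated cells and more RNA per differentiated cell cannot be told apart.

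Levels are the authors' normalized values, taken as log2 intensities, so that a difference of 1 is a 2-fold change. On every array the median of all probes was 6.68 and the highest value 15.3, and levels near the median are close to those of unexpressed probes. Of 11883 genes tested with limma, 4423 (37.2%) passed an adjusted p of 0.05 on the first day. Of these, 1894 (15.9%) rose and 2529 (21.3%) fell. Most changes were small: 1300 of the raised and 2041 of the lowered genes changed by less than 1.5-fold. At least 2-fold changes were lopsided, with 280 genes up (2.36%) and 84 genes down (0.707%). A rise of at least 4-fold was seen for 81 genes, of at least 8-fold for 33 and of at least 16-fold for 18, whereas 5 genes fell by at least 4-fold. The arrays of the groups did not overlap for 45.7% of all genes, with 20.1% higher and 25.5% lower on every 24 h array. The median change over all genes tested was -0.015.

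The 95% confluent myoblasts were less alike than the other groups. Array 3 of that group correlated with the other 95% arrays at 0.985 to 0.986, while within every other group the arrays correlated at 0.997 to 0.998. Among the 280 genes raised at least 2-fold, array 3 was the lowest of the 95% arrays for 215, and among the 84 genes lowered at least 2-fold it was the highest for 61. Over all genes it was the lowest for 4410 and the highest for 4942. For the 81 genes raised at least 4-fold, the median level was 10.51, 10.33 and 10.41 on the 24 h arrays, against 7.35, 7.5 and 6.86 on 95% arrays 1, 2 and 3. For these genes array 3 thus lay farther from the 24 h arrays than the other 95% arrays did. The genes were chosen by a difference that includes array 3, so a deviating array is likely to be the extreme among them. Without it 4679 genes passed, and 238 rose and 62 fell by at least 2-fold. With the 6 arrays fitted alone, 278 of the 280 genes raised and 84 of the 84 genes lowered at least 2-fold still passed.

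**Figure D1:**
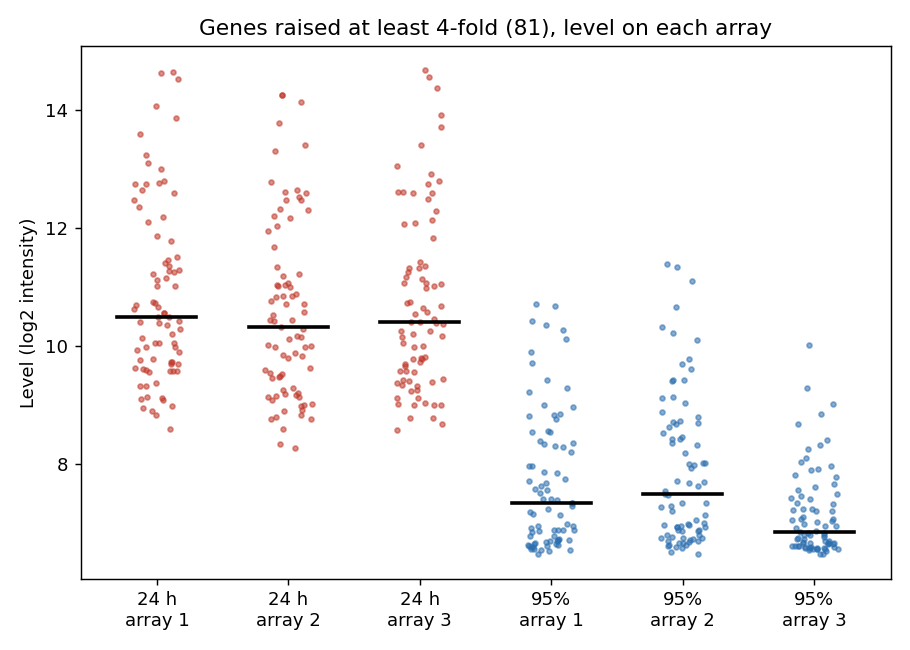
Level (log2 intensity, vertical axis) of each of the 81 genes raised at least 4-fold, as points, on the 3 arrays of 24 h myotubes and the 3 arrays of 95% confluent myoblasts. Horizontal bars are the medians, which lie at 10.51, 10.33 and 10.41 at 24 h and at 7.35, 7.5 and 6.86 at 95% confluence; array 3 is the lowest of the 95% arrays.

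Of the 15 largest rises, those at the top were of contractile genes. Mylpf, the fast regulatory myosin light chain, stood at 14.65, 14.26 and 14.68 in 24 h myotubes, against 8.21, 8.74 and 7.08 in 95% confluent myoblasts. Its rise was 6.52 ± 0.33 on the log2 scale (SE, n = 3 arrays each), or 91.7-fold, with an adjusted p of 5.07e-08. Tnnc2, the calcium-binding troponin C of fast fibres, stood at 13.87, 13.42 and 13.73, against 7.29, 7.64 and 6.61, a rise of 6.49 ± 0.24 (89.9-fold). No array of 24 h myotubes came near the myoblast arrays for either gene.

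The sarcomeric actins rose with them. Actc1, the cardiac alpha-actin that embryonic skeletal muscle also makes, stood at 13.61, 13.32 and 13.41 in 24 h myotubes, against 7.51, 8.01 and 6.87 in 95% confluent myoblasts (a rise of 5.98 ± 0.23). Acta1, the alpha-actin of adult skeletal muscle, stood at 14.53, 14.14 and 14.57, against 8.40, 9.13 and 8.11 (5.87 ± 0.23, 58.3-fold). The 15 largest rises were drawn only from genes whose groups did not overlap. Next in size were the atrial and embryonic myosin light chain Myl4 (4.83), the fast troponin I Tnni2 (4.78), the calcium pump Atp2a1 (4.77), the myosin light chain Myl1 (4.69), the slow and cardiac troponin C Tnnc1 (4.62) and the transcription factor Myog (4.62). The set of 15 ended with the growth factor Igf2 (4.49), the secreted hormone Fgf21 (4.38), the sarcomere-associated adaptor Klhl41 (4.29), the slow troponin I Tnni1 (4.11) and the fast troponin T Tnnt3 (4.11). With all usable probes averaged, the rise of Myl4 was 2.40. Myl1 was the least even of these on the 95% arrays, at 10.13, 11.40 and 7.67, against 14.63, 14.26 and 14.38 at 24 h, and its rise was 3.66 without 95% array 3 and 5.53 without 95% array 2.

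The largest falls were smaller. The proliferins, secreted relatives of prolactin that growing mouse cells make, led them: Prl2c3 stood at 11.62, 11.85 and 11.73 in 24 h myotubes, against 14.12, 14.23 and 14.61 in 95% confluent myoblasts. It fell by 2.59 ± 0.14 on the log2 scale (6.01-fold, adjusted p = 8.42e-08). Prl2c4 (-2.53) and Prl2c2 (-2.51) fell by almost as much, and since these genes are near-identical copies, their probes may read the same transcripts. Prl2c1 (-0.55) and Prl2c5 (-0.23) fell too, from levels near the array median.

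Behind them came Hba-a1, an alpha-globin (-2.10), and Pdk4, a mitochondrial kinase that inhibits pyruvate dehydrogenase. Pdk4 stood at 7.41, 7.56 and 7.58 in 24 h myotubes, against 9.53, 9.37 and 9.78 in 95% confluent myoblasts (-2.04 ± 0.09, 4.12-fold lower). The list went on with the integrin subunit Itgb7 (-1.89), the Wnt ligand Wnt10a (-1.87), the sulfotransferase Chst1 (-1.63), the chemokine Ccl7 (-1.61), the Myc target Cdca7 (-1.59) and Twist2 (-1.52), a repressor of MyoD and MEF2 activity. It closed with the glutathione transferase family member Mgst2 (-1.49), the procollagen processing enhancer Pcolce2 (-1.49), the membrane protein Fxyd5 (-1.48) and the nuclear noncoding RNA Neat1 (-1.46). Hba-a1 was high in 95% confluent myoblasts above all: it averaged 7.42 in 50% confluent myoblasts, 10.40 in 95% confluent myoblasts, 8.30 in 24 h myotubes and 7.496 in 48 h myotubes. The erythroid haem-synthesis gene Alas2 lay below the filter on dim probes.

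**Figure D2:**
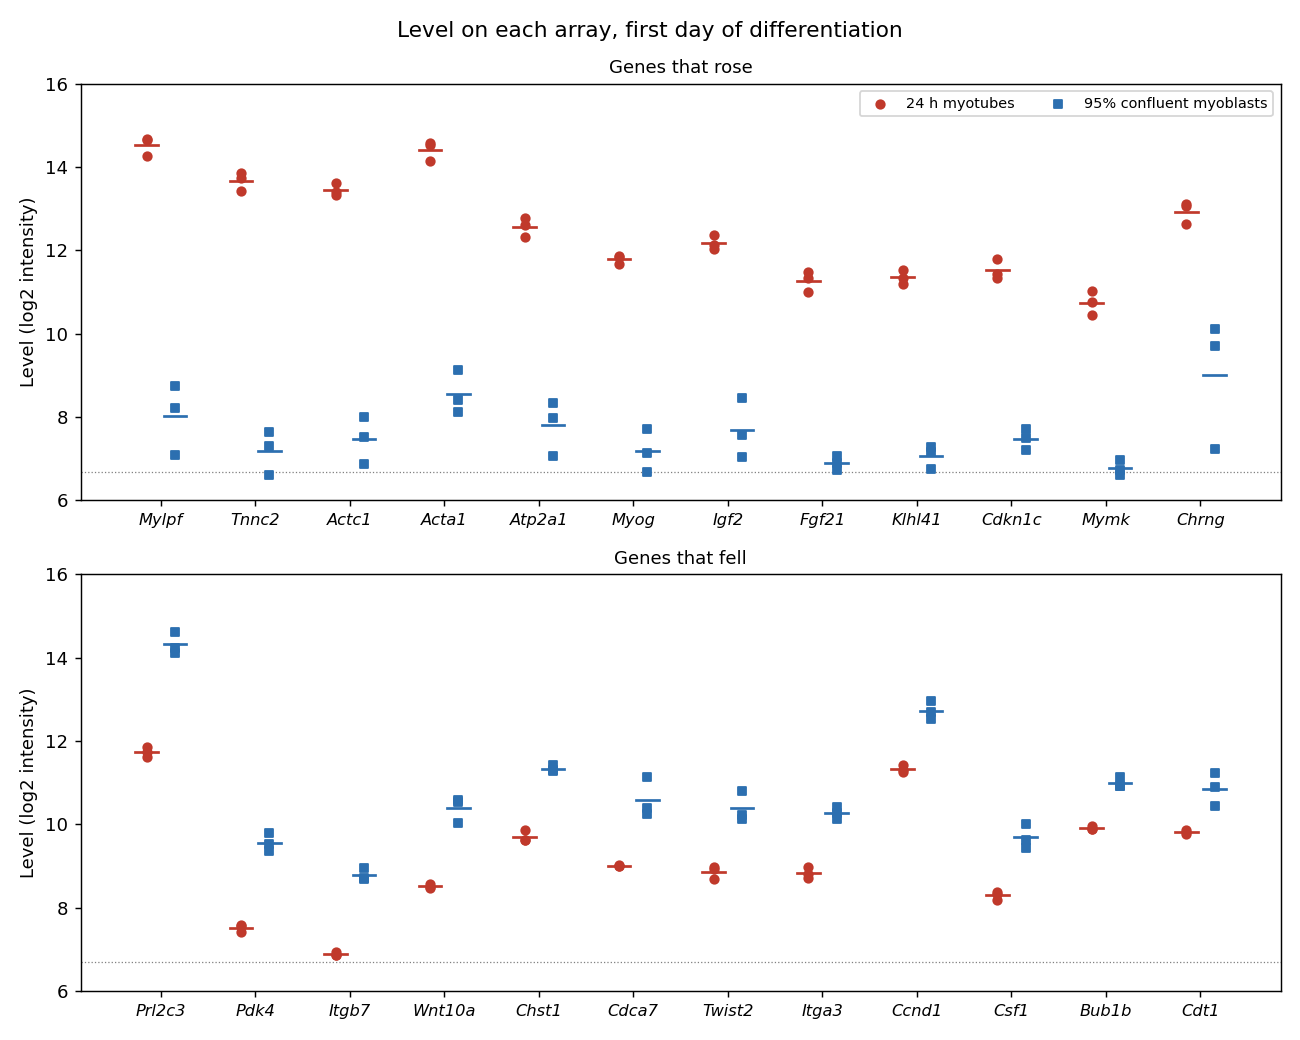
Level (log2 intensity, vertical axis) of 24 genes on each array, circles for 24 h myotubes and squares for 95% confluent myoblasts, with bars at the group means and a dotted line at the array median. Genes that rose are in the upper panel and genes that fell in the lower. The groups do not overlap for any gene shown, which was a condition for choosing most of them. Mylpf reaches 14.68 at 24 h.

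Sequence upstream of these genes was looked at next, because MyoD and myogenin bind E-boxes, MEF2 proteins bind an A/T-rich element and SRF binds the CArG box. Shown are the 250 bases before the start of 4 genes, picked by hand among those that rose at least 4-fold. The sequences come from RefSeq on GRCm38.p6 and are written 5′ to 3′ on the gene's strand. Capitals mark CAGCTG, a form of the E-box (CANNTG), the MEF2 site in Klhl41 and the CArG box in Acta1. Other forms of the E-box are not marked. In these stretches the MEF2 site was sought only in Klhl41 and the CArG box only in Acta1. All 4 genes hold CAGCTG, so they do not stand for raised genes at large. The genes are Acta1 at chr8:123894776-123895025 (minus strand), Klhl41 at chr2:69669870-69670119 (plus), Chrng, the gamma subunit of the embryonic acetylcholine receptor, at chr1:87205561-87205810 (plus), and Atp2a1 at chr7:126463074-126463323 (minus).
Acta1: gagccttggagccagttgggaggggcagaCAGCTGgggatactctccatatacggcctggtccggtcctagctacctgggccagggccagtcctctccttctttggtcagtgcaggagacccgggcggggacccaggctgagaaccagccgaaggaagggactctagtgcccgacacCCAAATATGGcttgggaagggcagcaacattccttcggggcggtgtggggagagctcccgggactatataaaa
Klhl41: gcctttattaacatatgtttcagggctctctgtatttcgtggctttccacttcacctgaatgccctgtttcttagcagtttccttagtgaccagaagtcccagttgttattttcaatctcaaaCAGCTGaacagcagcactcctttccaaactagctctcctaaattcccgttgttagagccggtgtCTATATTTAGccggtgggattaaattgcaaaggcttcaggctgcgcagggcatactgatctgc
Chrng: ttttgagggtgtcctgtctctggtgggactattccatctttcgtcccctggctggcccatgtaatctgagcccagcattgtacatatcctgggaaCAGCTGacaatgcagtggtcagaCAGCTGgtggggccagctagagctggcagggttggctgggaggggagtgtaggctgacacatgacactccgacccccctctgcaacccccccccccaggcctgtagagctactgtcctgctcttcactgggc
Atp2a1: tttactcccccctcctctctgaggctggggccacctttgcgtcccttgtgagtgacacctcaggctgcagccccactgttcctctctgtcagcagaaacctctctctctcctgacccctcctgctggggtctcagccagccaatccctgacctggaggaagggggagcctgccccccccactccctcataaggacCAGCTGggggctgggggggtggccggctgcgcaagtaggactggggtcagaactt

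The first base of CAGCTG lay at -221 in Acta1, -127 in Klhl41, -155 and -132 in Chrng and -55 in Atp2a1, and the CArG box of Acta1 began at -73. Over the 300 bases from 250 before to 50 after the start, on either strand, CAGCTG was present in 37.5% of the 80 promoters of genes raised at least 4-fold and in 29.8% of the 292 promoters of genes raised at least 2-fold. It was present in 14.1% of the 78 promoters of genes lowered at least 2-fold, in 15.9% of the 12222 promoters of all genes tested and in 16.3% of the 32851 promoters in the table. The MEF2 site was present in 12 of the 80 promoters of genes raised at least 4-fold, against 1.9% of those of all genes tested and 3.2% of the whole table. The CArG box was present in 5.0%, against 1.5% and 1.6%. CCAAT, a general promoter element, was present in 38.8%, against 37.4% and 37.4%. Promoters were found for 59 of the 81 genes raised at least 4-fold, 199 of the 280 raised at least 2-fold, 61 of the 84 lowered at least 2-fold and 9582 of the 11883 tested. These shares are descriptions, and a match is not a bound site.

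Across the sarcomere, members that passed the test nearly all rose. Of 23 thick filament and M-band genes listed, 17 were tested, 11 rose and none fell, with a median change of 1.43 (0.85 with probes averaged, 0.90 when dim probes were not filtered and 2.91 when only the 24 h and 95% groups set the filter). The median level of the tested members was 6.65, 6.75 and 6.66 on the 95% arrays, which is that of the array median. Genes so dim in myoblasts could pass the filter through the myotube arrays and could hardly fall, so the lack of falls says little. Besides the light chains, the M-band proteins Myom2 (3.78 ± 0.22, 13.8-fold) and Myom1 (1.43) and the giant spring protein Ttn (2.91, 7.51-fold, and 0.91 with its probes averaged) rose. Ttn stood at 9.99, 9.86 and 9.79 in 24 h myotubes, against 6.89, 7.22 and 6.81 in 95% confluent myoblasts. Of the heavy chains, the perinatal Myh8 rose by 1.97 ± 0.15, at 8.99, 8.24 and 8.59 against 6.57, 6.75 and 6.59 (0.99 with its probes averaged). The slow heavy chain Myh7 stayed at the array median, at 6.73, 6.73 and 6.64 against 6.65, 6.67 and 6.66, and did not pass (adjusted p = 0.607). The embryonic heavy chain Myh3 had no usable probe.

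Of 21 thin filament genes listed, 19 were tested, 11 rose and 3 fell, with a median change of 2.32. Beside the actins and troponins, the actin nucleator Lmod3 rose by 2.70 (6.5-fold) and the pointed-end cap Tmod1 by 2.32 (4.98-fold). The slow troponin T Tnnt1 stood at 12.47, 12.22 and 12.29 in 24 h myotubes, against 9.91, 10.22 and 7.33 in 95% confluent myoblasts (3.17 ± 0.55, and 2.26 without 95% array 3). Its level on 95% array 3 lay apart from the other myoblast arrays. Tropomyosins, which lie along the actin filament, split: Tpm2 rose by 0.73 (2.31 with its probes averaged), and Tpm1, which was already at 13.49, 13.30 and 13.35 in 95% confluent myoblasts, fell by 0.34 to 12.96, 13.18 and 12.99. Nebulin (Neb), read by a probe at 6.48, 6.49 and 6.46 against 6.43, 6.55 and 6.47, did not pass.

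Of 28 Z-disc genes listed, 22 were tested, 17 rose and 1 fell, with a median change of 1.04. Their median level on the 95% arrays was 6.95, 6.94 and 6.94, so many members had little room to fall. Csrp3, a muscle LIM protein, rose by 2.77 ± 0.13 (6.85-fold), the LIM protein Pdlim3 by 2.56 (1.89 without 95% array 3), the cross-linker Actn2 by 2.66 and Synpo2l by 2.16. Averaging its probes gave 1.43 for Actn2. Desmin (Des), the muscle intermediate filament, was already abundant, at 13.62, 13.53 and 13.62 in 24 h myotubes, against 12.69, 12.86 and 12.21 in 95% confluent myoblasts, and rose by 1.004 ± 0.13. The member that fell was Pdlim7 (-0.57 ± 0.05), a LIM protein of stress fibres as well as Z-discs.

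**Figure D3:**
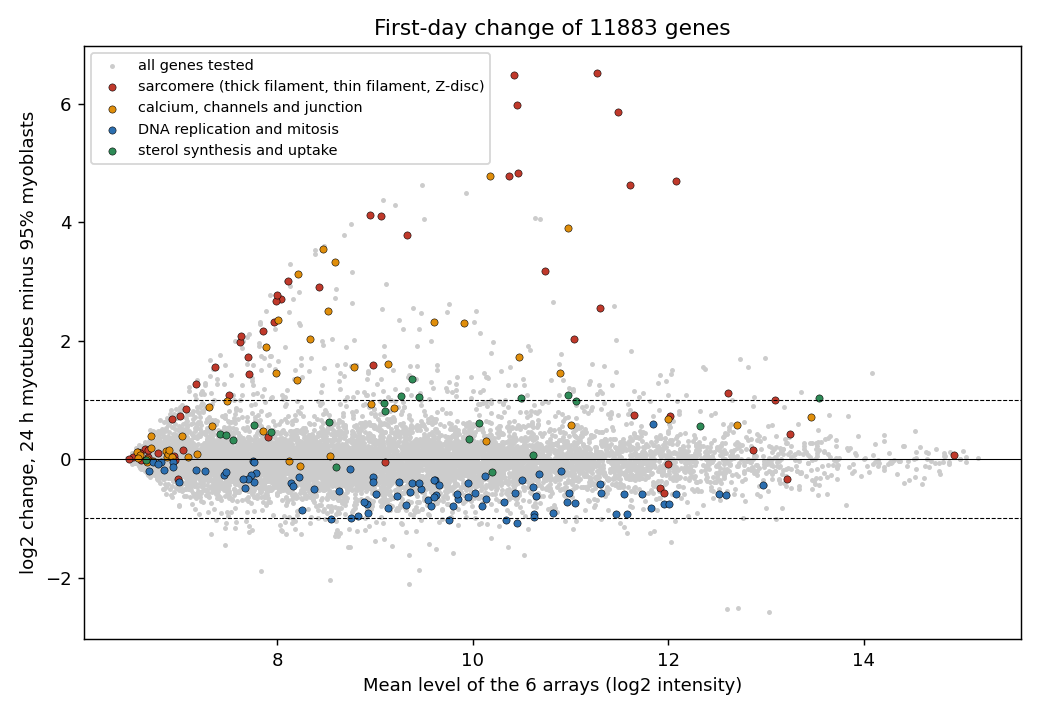
Change on the first day (log2, 24 h myotubes minus 95% confluent myoblasts, vertical axis) against the mean level of the 6 arrays (log2 intensity, horizontal axis) for 11883 genes, with 4 groups of listed genes in colour and dashed lines at 2-fold. Sarcomere genes reach 6.52 at high levels, genes of calcium handling, channels and the junction lie mostly above 0, replication and mitosis genes lie between -1.08 and 0.59, and sterol genes lie between -0.23 and 1.35.

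The membrane systems that couple excitation to contraction rose as well. Of 22 genes of calcium storage and release listed, 18 were tested, 13 rose and none fell, with a median change of 1.57. Their median level on the 95% arrays was 7.06, 7.33 and 6.86, so many members had little room to fall. Atp2a1, the pump that returns calcium to the sarcoplasmic reticulum, stood at 12.78, 12.33 and 12.60 in 24 h myotubes, against 7.98, 8.34 and 7.07 in 95% confluent myoblasts (4.77 ± 0.25, 27.3-fold). The widely expressed pump Atp2a2 rose by 1.73 ± 0.09 (3.32-fold). Luminal calcium binders followed: Hrc rose by 3.55 (11.7-fold), Srl by 3.32 and Casq2 by 3.12 (8.7-fold), and Srl by 1.93 when its probes were averaged. The release channel Ryr1 rose by 2.35 ± 0.11 (1.35 with its probes averaged), its partners Jsrp1 and Stac3 by 2.03 and 1.89, and the plasma membrane entry channel Orai1 by 0.93. Casq1 (0.11, adjusted p = 0.156) and parvalbumin, Pvalb (0.09, adjusted p = 0.716), which belong to mature fast fibres, did not pass.

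Among 21 genes of sarcolemmal channels and T-tubules listed, 15 were tested, 9 rose and none fell, with a median of 0.39. The tested members had a median level of 7.04, 7.03 and 6.9 on the 95% arrays, which also left little room to fall. The potassium channel of the reticulum Tmem38a rose by 2.50 ± 0.11 (5.66-fold) and the calcium channel subunit Cacng1 by 1.45. Cacng1 stood at 11.75, 11.45 and 11.66 in 24 h myotubes, against 10.36, 10.80 and 9.35 in 95% confluent myoblasts. Popdc2, a cyclic AMP binding membrane protein, rose by 0.88 and the muscle caveolin Cav3 by 0.39.

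Embryonic acetylcholine receptor subunits rose before any nerve is present in such cultures. Of 16 genes of the receptor and neuromuscular junction listed, 14 were tested, 9 rose and none fell, with a median of 0.57. Chrng, the embryonic gamma subunit, stood at 13.10, 12.62 and 13.05 in 24 h myotubes, against 9.71, 10.11 and 7.23 in 95% confluent myoblasts (3.91 ± 0.54, with 3.02 without 95% array 3 and 2.43 with its probes averaged). The delta subunit Chrnd rose by 1.34, Chrna1 by 0.70 and Chrnb1 by 0.68. Chrna1 was already among the brighter genes, at 13.19, 13.28 and 12.84 in myoblasts, against 13.722, 13.702 and 13.999 at 24 h. The receptor kinase Musk rose by 0.56 ± 0.07, while the adult epsilon subunit Chrne stood at 7.004, 6.820 and 6.993 against 6.95, 6.86 and 6.92 and did not pass (adjusted p = 0.743). Without 95% array 2, 1 member fell, and without 95% array 3 the median was 0.37.

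The dystrophin complex and the costamere tie the cytoskeleton to the matrix. Of 16 tested genes of this joint list (22 listed), 11 rose and none fell, with a median of 0.68. The sarcoglycan Sgca rose by 2.71 ± 0.16 (6.57-fold) and dystroglycan (Dag1) by 1.15. Listed genes outside the complex rose too: the anchoring protein Ank1 by 2.56, Itgb1bp2 by 1.88, the laminin-binding integrin Itga7 by 1.77 and the laminin chain Lama2 by 0.96. Sgca stood at 9.99, 9.80 and 10.05 in 24 h myotubes, against 7.42, 7.48 and 6.80 in 95% confluent myoblasts, with no overlap. Dystrophin itself (Dmd) lay below the filter.

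Of 29 fusion and adhesion genes listed, 25 were tested and 6 rose (24.0%), while 2 fell (8.0%). Mymk, the membrane protein that drives fusion of myoblasts, stood at 11.03, 10.44 and 10.76 in 24 h myotubes, against 6.73, 6.97 and 6.62 in 95% confluent myoblasts (3.97 ± 0.14, 15.7-fold, adjusted p = 2.79e-09). Its myoblast levels were those of the array median. Cdh15, the muscle cadherin, rose by 1.55 and Tmem30a, a flippase subunit, by 0.40, while the median of the list was -0.004. Mymk thus stood apart from most of the other listed fusion genes in size. The 2 falls became 1 without 24 h array 1, 24 h array 2, 95% array 1 or 95% array 2.

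**Figure D4:**
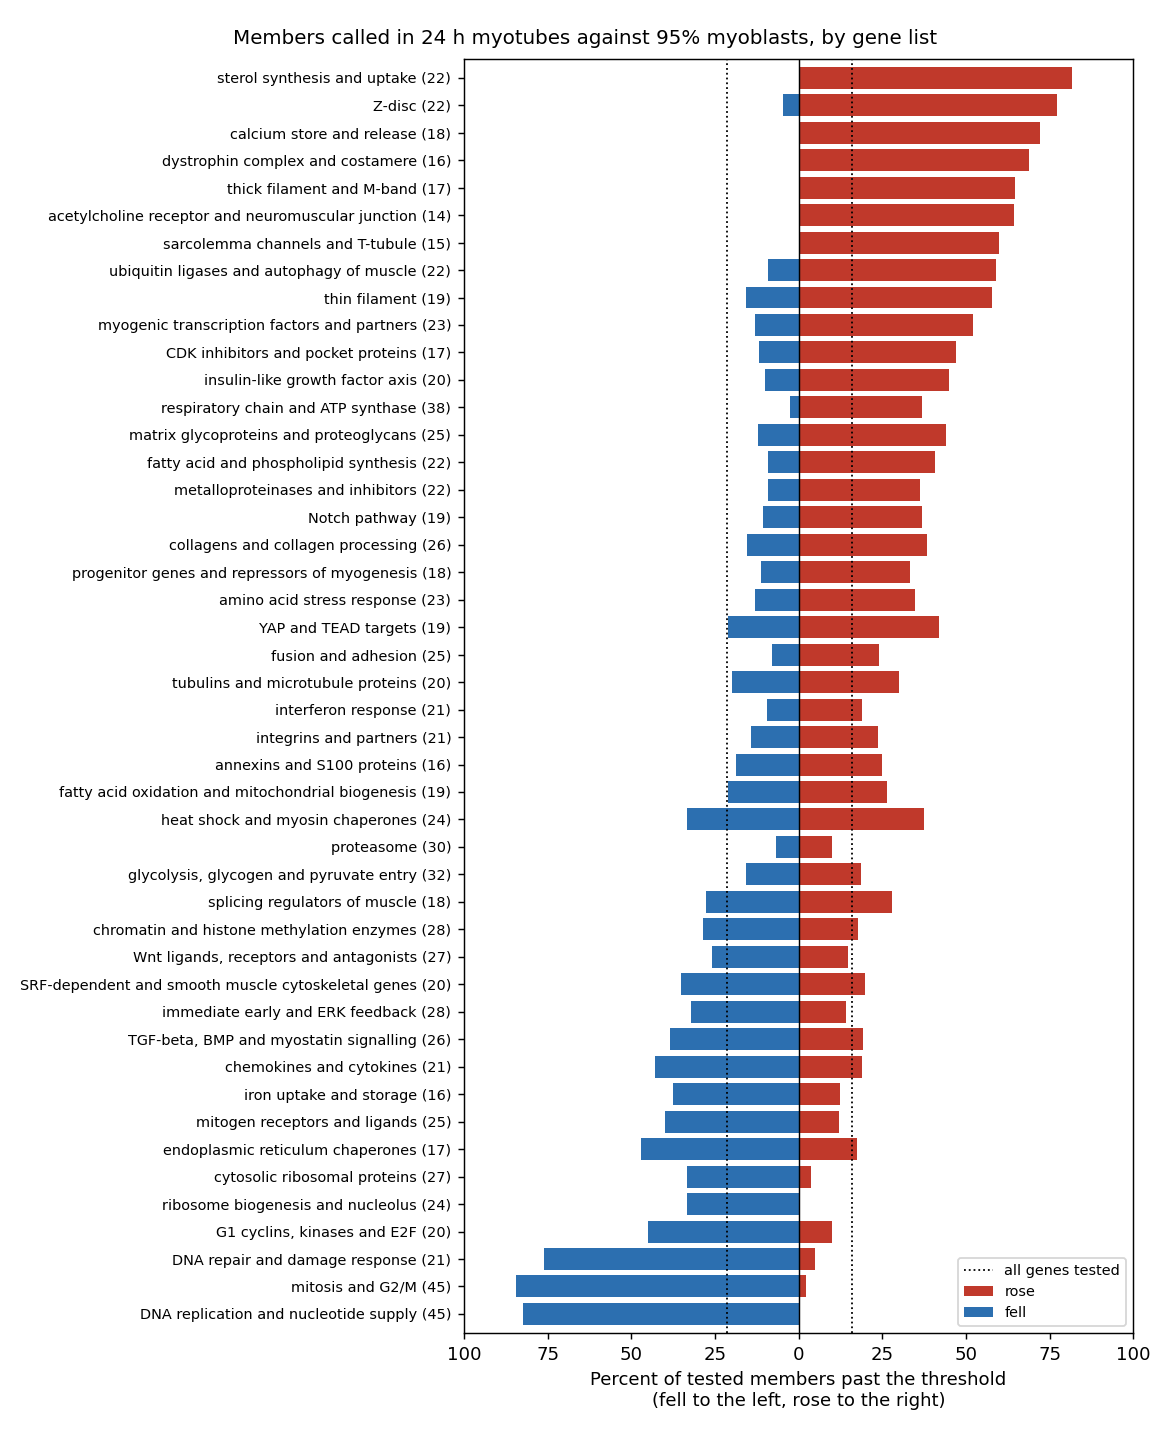
Percent of tested members that rose (to the right) or fell (to the left) in 24 h myotubes against 95% confluent myoblasts, for each list with at least 14 tested members (number in brackets). Dotted lines mark all genes tested, 15.9% up and 21.3% down. Sterol, Z-disc and calcium lists reach 81.8%, 77.3% and 72.2% up, and mitosis and replication lists 84.4% and 82.2% down.

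Genes of energy supply were examined next. Of 12 listed genes of the creatine kinase and energy buffer system, 11 were tested, 8 rose and 1 fell (median 0.60). Myoglobin (Mb) stood at 10.71, 10.45 and 10.55 in 24 h myotubes, against 6.73, 6.87 and 6.77 in 95% confluent myoblasts (3.78 ± 0.14, 13.7-fold). Muscle creatine kinase (Ckm) stood at 10.07, 9.54 and 9.74, against 6.49, 6.48 and 6.48, which is below the array median on all 3 myoblast arrays. Its rise of 3.30 ± 0.11 thus started from levels at which no transcript was told from background. The brain-type kinase Ckb, already at 12.22, 12.27 and 11.63 in myoblasts, stood at 13.67, 13.46 and 13.66 at 24 h (1.56), and the creatine-synthesis enzyme Gamt rose by 1.31.

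Glycolysis as a list lay near the background, with 6 of 32 tested genes up (18.8%) and 5 down (15.6%; 3 without 24 h array 1 or 3) and a median of 0.04. Muscle isoforms were among those that rose: phosphoglycerate mutase Pgam2 by 2.83 ± 0.13 (7.08-fold), phosphofructokinase Pfkm by 1.12 and glycogen phosphorylase Pygm by 0.83 (from below the array median on every 95% array). Lactate dehydrogenase Ldha fell by 0.23, and Gapdh (0.11, adjusted p = 0.153) did not pass. Pdk4 and its relative Pdk3 (-0.42) both fell.

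In the respiratory chain, 14 of 38 tested genes rose (36.8%) and 1 fell, but the median change was 0.15. Cox6a2, a cytochrome oxidase subunit of muscle, stood at 10.41, 9.88 and 10.17 in 24 h myotubes, against 6.62, 6.62 and 6.61 in 95% confluent myoblasts (3.54 ± 0.11). As for Ckm, all its myoblast values lay below the array median, so no fold is given. Cox8b rose by 2.11 ± 0.09 (4.31-fold) and Cox7a1 by 0.73. The counterpart in other tissues, Cox6a1, stood at 13.57, 13.67 and 13.51 against 13.43, 13.30 and 13.24 and rose by 0.26. The fall of 1 member became 0 without 24 h array 1, 2 or 3, without 95% array 2, or without any of 4 arrays of the other stages (48 h arrays 1, 2 and 3 and 50% array 2), and 2 without 95% array 3. In fatty acid oxidation, 5 of 19 tested genes rose (26.3%, and 3 genes without 24 h array 1 or 2). Falls numbered 4 (21.1%, and 2 genes without 24 h array 1 or 3), where 15.9% of all genes tested rose and 21.3% fell. The fatty acid carrier Fabp3 rose (0.92) and the nuclear receptor Ppard fell (-0.67). Cpt1b, which carries fatty acids into muscle mitochondria, fell too (-0.26), but did not pass with its probes averaged (-0.08).

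Of the transcription factors that direct myogenesis, 12 of 23 tested rose and 3 fell (26 listed), with a median of 0.29 (0.20 without 95% array 3). Myog, which executes differentiation, stood at 11.87, 11.68 and 11.83 in 24 h myotubes, against 7.14, 7.71 and 6.67 in 95% confluent myoblasts (4.62 ± 0.20, 24.6-fold, adjusted p = 1.16e-08). Myod1, which marks the lineage before differentiation, was present in both groups, at 9.84, 9.64 and 9.87 against 9.16, 9.30 and 9.10, and rose by 0.60 ± 0.07 (1.51-fold). Mef2c, the partner that amplifies the muscle programme, rose by 1.36 ± 0.10, at 8.63, 8.26 and 8.38 against 6.87, 7.19 and 7.11, and by 0.62 with its probes averaged. The rise of Myog was thus far larger than that of either.

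Hes6, an inhibitor of Hes1 that favours differentiation, rose by 1.26, Klf5 by 1.26 and the actin-gene factor Srf by 0.95 (0.56 with its probes averaged). The arginine methyltransferase Carm1 fell by 0.48. Myf5 lay below the filter and Mef2a had no usable probe.

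Genes of progenitors and repressors of myogenesis had a median change of 0.03. Of 18 tested, 6 rose (33.3%) and 2 fell (11.1%), where 15.9% of all genes tested rose and 21.3% fell. With the 6 arrays alone 3 rose. Twist2 stood at 8.68, 8.98 and 8.93 in 24 h myotubes, against 10.22, 10.13 and 10.79 in 95% confluent myoblasts (-1.52 ± 0.14, 2.86-fold lower), and Sox9 fell by 0.57. Sox8, an antagonist of MyoD in satellite cells, rose by 0.996 ± 0.10 (0.59 with its probes averaged). The Id proteins, which sequester the E-protein partners of MyoD, did not pass: Id3 was at 8.79, 8.64 and 8.73 against 8.50, 8.49 and 9.21 (-0.01, 95% interval -0.35 to 0.33), Id1 changed by 0.01 and Id2 by -0.21. The interval for Id3 leaves out a 1.5-fold change either way, but without 95% array 3 Id3 was 0.23 higher (adjusted p = 0.0211, limma) and Id1 0.31 higher (adjusted p = 0.0075). Without 95% array 1, Id2 changed by -0.48 (adjusted p = 0.00814). Pax7 and the muscle growth inhibitor Mstn lay below the filter.

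Several cell cycle brakes rose. Of 17 tested CDK inhibitors, pocket proteins and related genes (20 listed), 8 rose and 2 fell, with a median of 0.09 (0.32 without 95% array 1 and 0.01 without 95% array 3). Cdkn1c, the p57 inhibitor, stood at 11.79, 11.34 and 11.43 in 24 h myotubes, against 7.718, 7.496 and 7.209 in 95% confluent myoblasts (4.05 ± 0.13, 16.5-fold). Cdkn1a, the p21 inhibitor induced by MyoD, stood at 13.96, 13.83 and 13.74, against 12.31, 12.30 and 11.81 (1.71 ± 0.11, 3.27-fold). Cdkn1a was well above the array median in myoblasts already, while Cdkn1c lay close to it.

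Rb1, the retinoblastoma protein that holds E2F in check, rose by 1.55 ± 0.10 (2.93-fold), the cyclin retained in myotubes Ccnd3 by 1.08, and the stress-inducible growth arrest genes Gadd45a and Gadd45g by 1.34 and 1.12. Without 95% array 3 the rise of Gadd45a was 0.89. Cdkn1b, the p27 inhibitor, read near the array median at 7.08, 7.08 and 7.11 against 7.06, 7.09 and 6.94 and did not pass (adjusted p = 0.425).

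Among G1 cyclins, kinases and E2F factors, 9 of 20 tested fell (45.0%) and 2 rose, with a median of -0.17. Ccnd1, the serum-driven cyclin that blocks MyoD, stood at 11.25, 11.42 and 11.31 in 24 h myotubes, against 12.69, 12.53 and 12.97 in 95% confluent myoblasts (-1.40 ± 0.11, 2.64-fold lower). Ccne2 fell by 0.70 and Myc by 0.56. E2f2 went the other way, at 11.48, 11.36 and 11.56 against 10.22, 10.40 and 9.79 (1.33 ± 0.13), while E2f1 (-0.16, adjusted p = 0.0718) did not pass unless 95% array 1 was left out (-0.21, adjusted p = 0.0212). The 2 rises were 1 without 24 h array 1, 24 h array 2 or 95% array 2, and 4 without 95% array 3.

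DNA replication genes fell almost as a block. Of 49 listed, 45 were tested, 37 fell (82.2%) and none rose, with a median of -0.59. The licensing factor Cdt1 stood at 9.78, 9.88 and 9.82 in 24 h myotubes, against 10.43, 10.89 and 11.24 in 95% confluent myoblasts (-1.03 ± 0.14, 2.04-fold lower). Cdc6, which loads the helicase, fell by 1.02 (-0.53 with its probes averaged), the flap nuclease Fen1 by 0.93, the helicase subunits Mcm5 and Mcm3 by 0.92 and 0.91, thymidine kinase Tk1 by 0.91 and the polymerase subunit Pold1 by 0.80. Pcna, the polymerase clamp, did not pass (-0.24, adjusted p = 0.106), at 7.58, 7.71 and 7.70 against 7.68, 7.85 and 8.17. It passed without 95% array 1 (-0.35, adjusted p = 0.0178, limma). Falls were thus near 2-fold at most, and transcripts of these genes remained at 24 h.

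Mitosis genes fell alike: of 53 listed, 45 were tested, 38 fell (84.4%) and 1 rose, with a median of -0.50. The checkpoint kinase Bub1b stood at 9.89, 9.89 and 9.96 in 24 h myotubes, against 10.93, 10.93 and 11.13 in 95% confluent myoblasts (-1.08 ± 0.07, 2.12-fold lower). The spindle kinases Aurka and Plk1 fell by 0.98 and 0.93, the kinesins Kif20b and Kif22 by 0.96 and 0.75, the anaphase activator Cdc20 by 0.75 and the mitotic kinase Cdk1 by 0.58 (-0.23 with its probes averaged). The cyclin Ccna2 was read by a probe at the array median (6.70, 6.73 and 6.68 against 6.71, 6.72 and 6.85) and did not pass, and Mki67 had no usable probe. The member that rose was the kinesin Kif23, named after its value was seen: its rise of 0.59 was -0.17 with its probes averaged and did not pass without 24 h array 1, 2 or 3 or with the 6 arrays alone. Without 95% array 3 it was 0.33.

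Of 21 tested genes of DNA repair and damage response, 16 fell (76.2%) and 1 rose, with a median of -0.25. The mismatch repair gene Msh6 fell by 0.90 ± 0.15, the polymerase Polk by 0.66, the helicase Blm by 0.64 and Parp1, which senses strand breaks, by 0.57. Msh6 stood at 9.98, 10.18 and 10.01 in 24 h myotubes, against 10.76, 10.74 and 11.35 in 95% confluent myoblasts.

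Cell cycle promoters carry elements that genes of the same phase share: the CHR element, TTTGAA, through which DREAM and B-Myb complexes act on mitotic genes, and E2F sites in replication genes. Windows of 30 bases around a match are shown for mitosis genes with TTTGAA in capitals, or TTCAAA where it lies on the other strand, from RefSeq on GRCm38.p6 and written on the gene's strand. They come from Bub1b (chr2:118598231-118598260), Aurka (chr2:172370521-172370550), Kif20b (chr19:34922353-34922382), Plk1 (chr7:122159453-122159482), Cdc20 (chr4:118437344-118437373) and Kif22 (chr7:127042420-127042449).
Bub1b: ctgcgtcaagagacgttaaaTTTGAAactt
Aurka: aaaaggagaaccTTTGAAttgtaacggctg
Kif20b: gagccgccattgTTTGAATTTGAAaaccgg
Plk1: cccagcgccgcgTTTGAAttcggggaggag
Cdc20: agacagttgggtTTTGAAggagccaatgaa
Kif22: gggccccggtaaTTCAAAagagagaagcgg

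For replication genes, capitals mark the E2F letters TTTGGCGC or TTTCCCGC, or their reverse complement. The windows lie at chr8:122568035-122568064 (Cdt1), chr11:98908002-98908031 (Cdc6), chr8:75109349-75109378 (Mcm5), chr1:20820275-20820304 (Mcm3) and chr7:44548766-44548795 (Pold1).
Cdt1: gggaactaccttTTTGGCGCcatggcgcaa
Cdc6: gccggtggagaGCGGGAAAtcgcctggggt
Mcm5: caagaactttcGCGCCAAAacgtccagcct
Mcm3: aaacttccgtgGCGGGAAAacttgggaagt
Pold1: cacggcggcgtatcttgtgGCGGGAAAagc

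TTTGAA was present in 77.5% of the 40 promoters of the mitosis list, in 14.9% of the 47 of the replication list, in 12.2% of those of all genes tested and in 17.9% of the whole table. The E2F letters were present in 21.3% of promoters of the replication list, in 5.0% of the mitosis list, in 2.7% of those of all genes tested and in 1.6% of the whole table. CCAAT was present in 70.0% of the mitosis list and 59.6% of the replication list, against 37.4% of all genes tested. Both lists had been chosen with earlier results of these data known.

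Genes of ribosome production fell in part. In ribosome biogenesis, 8 of 24 tested fell (33.3%) and none rose, but the count fell to 5 without 24 h array 1, and to 4 without 24 h array 2 or 3. The median of -0.27 was -0.42 without 95% array 2 and -0.01 without 95% array 3, which also gave 1 rise. Of 27 tested cytosolic ribosomal proteins, 9 fell (33.3%) and 1 rose, with a median of -0.09. That count was 4 or 5 without any 1 of the 24 h arrays or of 95% arrays 1 and 3, and 3 with the 6 arrays alone; the single rise became 2 without 24 h array 2 or 95% array 2. Rps3 fell by 0.40 ± 0.09 and Rpl22 rose by 0.74 ± 0.15.

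Members of the insulin-like growth factor system rose at several levels. Of 20 tested members (22 listed), 9 rose and 2 fell (1 without 24 h array 1 or 3 or 95% array 1 or 2), with a median of 0.17 (0.11 without 24 h array 2, 0.26 without 95% array 2 and 0.05 without 95% array 3). The ligand Igf2, which myoblasts secrete to drive their own differentiation, stood at 12.36, 12.04 and 12.13 in 24 h myotubes, against 7.57, 8.46 and 7.04 in 95% confluent myoblasts (4.49 ± 0.26, 22.4-fold). Igf1 rose by 0.72 ± 0.07, at 7.47, 7.53 and 7.69 against 6.90, 6.87 and 6.77. The clearance receptor Igf2r rose by 1.40 (2.65-fold).

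Among the binding proteins, Igfbp3 rose by 2.19 ± 0.06 (4.56-fold) and Igfbp4 by 1.18. Igfbp5 was already bright, at 13.64, 14.01 and 12.44 in myoblasts, against 14.84, 14.76 and 14.85 at 24 h (1.46). The signalling receptor Igf1r fell by 0.45 ± 0.13, with overlapping arrays (7.996, 8.242 and 7.963 in 24 h myotubes, against 8.60, 8.75 and 8.20 in 95% confluent myoblasts), and the adaptor Irs2 by 0.27. The fall of Igf1r did not pass with the 6 arrays alone (adjusted p = 0.0668, limma) or without 24 h array 1 or 3 or 95% array 1 or 2, and was -0.23 with its probes averaged.

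The Notch pathway, which keeps progenitors undifferentiated, had more members up than down. Of 19 tested members (26 listed), 7 rose (36.8%) and 2 fell (1 without 24 h array 1), with a median of 0.03. Its nuclear targets Hey1, Heyl and Hes1 rose by 1.98 ± 0.11, 1.92 and 0.96, the ligand Dll1 by 1.26 and the receptors Notch1 and Notch3 by 0.91 and 0.96. Hey1 stood at 11.32, 11.08 and 11.19 in 24 h myotubes, against 9.05, 9.51 and 9.10 in 95% confluent myoblasts. The rise of Notch3 was 0.62 without 95% array 3.

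In TGF-beta, BMP and myostatin signalling, 10 of 26 tested genes fell (38.5%) and 5 rose, with a median of -0.08 (-0.01 without 95% array 1 and -0.02 without 95% array 2). Fst, follistatin, which binds myostatin and activin, rose by 1.70 ± 0.13 (3.26-fold), at 8.88, 8.64 and 8.62 against 6.86, 6.85 and 7.31. The ligands Bmp4 and Tgfb2 rose by 1.11 (0.60 with its probes averaged) and 0.73, while Tgfb1 fell by 0.45 and the activin receptor Acvr2b by 0.47. Ligands of the family thus moved both ways.

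Wnt genes moved in single members: 7 of 27 tested fell (25.9%) and 4 rose (14.8%), close to the background. Wnt10a stood at 8.56, 8.50 and 8.48 in 24 h myotubes, against 10.53, 10.58 and 10.04 in 95% confluent myoblasts (-1.87 ± 0.11, 3.65-fold lower). Wnt7b (-1.17) and Wnt10b (-0.53) fell, and Porcn, which attaches the lipid that Wnt ligands need for secretion, rose by 1.04.

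Among mitogens and their receptors more fell than rose: of 25 tested (26 listed), 10 fell (40.0%) and 3 rose, with a median of -0.12. The macrophage growth factor Csf1 stood at 8.34, 8.39 and 8.19 in 24 h myotubes, against 9.44, 9.62 and 10.00 in 95% confluent myoblasts (-1.38 ± 0.11, 2.6-fold lower). Hgf, which activates satellite cells, fell by 1.22 (-0.72 with its probes averaged), and Fgf7 (-1.001) and Vegfc (-0.88) fell too. Fgf21, an endocrine member of the family that stressed muscle secretes, was 1 of the 3 that rose, at 11.47, 11.01 and 11.33 against 6.88, 7.06 and 6.73 (4.38 ± 0.14, 20.8-fold). The receptor Fgfr4 rose by 0.34.

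Of 28 tested immediate early and ERK feedback genes, 9 fell (32.1%) and 4 rose (7 without 95% array 2), with a median of -0.05 (-0.11 without 95% array 1). The phosphatase Dusp2 (-1.08 ± 0.07), the ERK-induced survival gene Ier3 (-1.04) and the ETS factor Etv4 (-0.99) fell, while Atf3 (1.05) and Klf2 (0.997) rose. Fos and Egr1 did not pass. On the 95% arrays they stood at 7.45, 8.80 and 7.36 and at 12.21, 13.35 and 11.93, with array 2 above the others, against 8.13, 8.14 and 8.08 and 12.48, 12.73 and 12.48 at 24 h. Without 95% array 2 both passed, Fos at 0.72 (adjusted p = 0.00577, limma) and Egr1 at 0.49 (adjusted p = 0.00597).

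Several inflammatory chemokines fell. Of 21 tested chemokines and cytokines, 9 fell (42.9%) and 4 rose, with a median of -0.19. The monocyte attractants Ccl7 and Ccl2 fell by 1.61 and 1.04, and the neutrophil attractant Cxcl1 by 1.08. Ccl7 stood at 8.55, 8.60 and 8.49 in 24 h myotubes, against 9.42, 9.99 and 11.05 in 95% confluent myoblasts, and Ccl2 at 7.12, 7.10 and 7.27 against 7.70, 7.97 and 8.93. Array 3 was the highest of the 95% arrays for both, and without it the change of Ccl2 was -0.67. The alarmin Il33 rose by 0.78.

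Of 19 tested targets and partners of YAP and TEAD, 8 rose and 4 fell, with a median of 0.21 (0.11 without 24 h array 2 and 0.14 without 95% array 1). The matricellular genes Ccn2 and Ccn1 rose by 1.52 ± 0.32 and 1.38 ± 0.16, and the muscle TEAD cofactor Vgll2 and the factor Tead4 by 1.35 and 0.93. Yap1 itself fell by 0.55 ± 0.09, at 8.64, 8.62 and 8.65 against 9.43, 9.05 and 9.07, and the kinase Nuak2 by 0.70. On the 95% arrays Ccn2 spread widely, at 10.70, 11.55 and 12.58, against 13.07, 13.17 and 13.16 at 24 h. GGAATG, the TEAD site, was present in 77.8% of the 18 promoters found for the list, against 12.3% of those of all genes tested and 14.7% of the whole table; the list was drawn from known TEAD targets.

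The extracellular matrix changed in both directions. Of 26 tested collagens and processing enzymes, 10 rose (38.5%) and 4 fell, with a median of 0.09 (0.17 without 95% array 1). Chains of collagen VI, the microfibrillar collagen of the muscle cell surface, rose: Col6a1 stood at 11.66, 11.77 and 11.61 in 24 h myotubes, against 10.66, 10.45 and 9.12 in 95% confluent myoblasts (1.60 ± 0.30), and Col6a2 rose by 1.59 ± 0.13. The fibrillar Col3a1 rose by 0.99 (0.64 without 95% array 3). The cross-linking enzyme Lox fell by 1.21 ± 0.13 (2.32-fold), at 11.06, 11.40 and 11.27 against 12.58, 12.65 and 12.15, and the basement membrane chain Col4a2 by 0.49.

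Among matrix glycoproteins and proteoglycans, 11 of 25 tested rose and 3 fell, with a median of 0.13 (0.07 without 24 h array 2). The small proteoglycan decorin (Dcn) stood at 12.75, 12.60 and 12.80 in 24 h myotubes, against 9.30, 9.43 and 7.25 in 95% confluent myoblasts (4.05 ± 0.42, with 3.35 without 95% array 3 and 2.08 with its probes averaged). Nid2, a linker of basement membranes, rose by 1.01 and fibronectin (Fn1) by 0.82. C1qtnf3, a secreted adipokine relative that ranked next after the 15 largest rises and was named after its value was seen, stood at 12.75, 12.65 and 12.60 against 8.57, 9.42 and 7.82 (4.06 ± 0.29).

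Several proteases that cut the matrix rose. Of 22 tested metalloproteinases and inhibitors, 8 rose and 2 fell, with a median of 0.10 (0.16 without 95% array 2). Adamts4 rose by 1.36 ± 0.20, the gelatinase Mmp2 by 1.19 and urokinase (Plau) by 0.98, and the inhibitor Timp1 and the urokinase receptor Plaur fell by 0.61 and 0.87.

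Integrins changed by subunit: 5 of 21 tested rose (23.8%) and 3 fell (14.3%, and 6 genes without 95% array 3). Over all genes tested 15.9% rose and 21.3% fell. The median of the list was -0.005. Itgb6 stood at 9.47, 9.40 and 9.43 in 24 h myotubes, against 7.39, 7.69 and 7.43 in 95% confluent myoblasts (1.93 ± 0.08). Itga3 went the other way, at 8.71, 8.99 and 8.80 against 10.42, 10.27 and 10.12 (-1.44 ± 0.09, 2.71-fold lower). Itgb7 was brought down to the array median, at 6.87, 6.92 and 6.87 against 8.72, 8.68 and 8.94.

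Sterol synthesis was the list with the largest share up in the plot of calls by list. Of 30 genes of sterol synthesis and uptake listed, 22 were tested, 18 rose (81.8%) and none fell, with a median of 0.60. Mvd, which makes isopentenyl diphosphate, stood at 10.09, 10.11 and 9.97 in 24 h myotubes, against 8.87, 8.49 and 8.76 in 95% confluent myoblasts (1.35 ± 0.09, 2.55-fold). Cyp51, Msmo1 and Nsdhl, which trim lanosterol further along the pathway, rose by 1.08, 1.06 and 1.02, and Pmvk and Mvk, the kinases upstream of Mvd, by 0.95 and 0.63. The master regulator Srebf2 and its brake Insig1 rose by 0.61 and 0.81 (1.24 for Insig1 with its probes averaged). Mvd and its neighbours were thus above the array median in both groups, and single rises stayed under 3-fold.

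Insig2 (-0.23, adjusted p = 0.141) did not pass; without 95% array 3 it did (-0.39, adjusted p = 0.000217) and was the 1 member that fell. In fatty acid and phospholipid synthesis, 9 of 22 tested rose and 2 fell, with a median of 0.17. The acetyl-CoA synthetase Acss2 rose by 1.51 ± 0.14 (0.79 with its probes averaged) and the desaturase Scd1 by 1.05, and the acyltransferase Agpat2 fell by 0.33. The sterol element TCACNCCAC was found in no promoter of the sterol list and in 1.2% of those of all genes tested and of the whole table.

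The amino acid stress response rose in part, with 8 of 23 tested up and 3 down and a median of 0.20 (0.13 without 95% array 1). Beside Fgf21, the reticulum protein Herpud1 rose by 1.28 ± 0.10 (2.43-fold), Nupr1 by 0.93, the glutathione-degrading Chac1 by 0.75 and the driver Atf4 by 0.36. Cebpb, a partner of Atf4, fell by 1.18 ± 0.09, at 10.48, 10.40 and 10.41 in 24 h myotubes, against 11.64, 11.55 and 11.65 in 95% confluent myoblasts. The serine-synthesis enzyme Phgdh fell by 0.63.

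Of the chaperones of the endoplasmic reticulum more fell than rose, with 8 of 17 tested down (47.1%), 3 up and a median of -0.15. Sdf2l1 fell by 0.68 and the isomerase Pdia4 changed by -0.50, while Dnajb9 rose by 0.67 and the central chaperone Hspa5 (-0.13, adjusted p = 0.326) did not pass. Cytosolic chaperones moved both ways. Of 24 tested heat shock and myosin chaperones, 9 rose and 8 fell, with a median of 0.04. Unc45b, which folds the myosin head, stood at 10.57, 10.01 and 10.26 in 24 h myotubes, against 6.64, 6.74 and 6.66 in 95% confluent myoblasts (3.60 ± 0.11, and 2.14 with its probes averaged). The muscle small heat shock proteins Hspb3 and Hspb2 rose by 1.52 and 1.04. Hspb6, of the same family, fell by 0.82 and the stress chaperone Hsph1 by 0.68. The 8 falls were 4 or 5 without any 1 of the 24 h arrays or 95% array 3.

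Of 22 tested muscle ubiquitin ligase and autophagy genes (27 listed), 13 rose and 2 fell (1 without 24 h array 1 or 2 or 95% array 1 or 2), with a median of 0.42. Klhl41, which stabilises nebulin, stood at 11.52, 11.20 and 11.33 in 24 h myotubes, against 7.17, 7.27 and 6.74 in 95% confluent myoblasts (4.29 ± 0.14, 19.5-fold). Trim72, a membrane repair protein, rose by 3.46, Asb2 by 3.00 (from below the array median on every 95% array), Trim54 by 2.30 and Klhl40 by 2.29. The atrophy ligases were little moved: Trim63 rose by 0.42 and Fbxo32 (-0.01, adjusted p = 0.98) did not pass unless 95% array 3 was left out (-0.19, adjusted p = 0.0337). Sqstm1, the autophagy adaptor p62, fell by 0.37. The proteasome lay under the background, with 3 of 30 tested up (none without 24 h array 1, 1 without 24 h array 2 and 7 without 95% array 3), 2 down and a median of 0.05.

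Iron genes fell in part: 6 of 16 tested fell (37.5%) and 2 rose (1 without any 1 of the 24 h arrays), with a median of -0.02. The transferrin receptor Tfrc fell by 0.80 ± 0.21 (-0.51 without 95% array 3), the mitochondrial iron importer Slc25a37 by 0.90 ± 0.07 and the haem-degrading Hmox1 by 0.71. Tfrc stood at 9.99, 10.04 and 10.22 in 24 h myotubes, against 10.54, 10.63 and 11.47 in 95% confluent myoblasts. The differentiation medium held added transferrin, and its part in these changes was not tested.

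Genes listed as imprinted, which in at least some tissues are expressed from a single parental copy, held several of the large rises. Expression by parental copy was not measured here. Of 25 listed, 13 were tested, 6 rose and none fell, with a median of 0.28 (0.47 without 95% array 2). That median depended on the filter on dim probes, at 0.03 with none and 1.404 for genes at a level of at least 7.5, and was 0.16 with probes averaged. Igf2, Cdkn1c, Dcn, Mest and Igf2r rose by 4.49, 4.05, 4.05, 2.95 and 1.40. Most of the other tested members, such as Grb10 (-0.10) and Peg10 (0.02), did not pass. H19 had no usable probe.

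In chromatin, 8 of 28 tested genes fell (28.6%) and 5 rose (17.9%), not far from the 21.3% and 15.9% of all genes tested. The damage-marked histone H2ax fell by 0.98 ± 0.12 and the Polycomb methyltransferase Ezh2 by 0.56, while the deacetylase Hdac11 rose by 1.27. Among splicing regulators, 5 of 18 tested rose (27.8%) and 5 fell (27.8%, and 3 genes without 24 h array 1 or 2). Their median was -0.06 (0.04 without 95% array 3). The repressor of muscle exons Ptbp1 fell by 0.78 ± 0.11, at 11.95, 12.04 and 11.91 in 24 h myotubes, against 12.54, 12.62 and 13.07 in 95% confluent myoblasts. The activators Qk and Rbm24 rose by 0.75 and 0.61.

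In the cytoskeleton, 4 of 20 tested SRF-dependent and smooth muscle genes rose and 7 fell (4 without 24 h array 1 or 3), with a median of -0.13 (-0.05 without 95% array 1). Actn1, the non-muscle actinin, fell by 0.54 and Smtn rose by 0.51. Of 20 tested tubulin and microtubule genes, 6 rose and 4 fell, led by Tubb6 (0.89 ± 0.07). Annexins and S100 proteins (4 of 16 up and 3 down, median 0.06, 0.001 without 24 h array 3 and -0.006 without 95% array 3) lay near the background. So did interferon response genes, with 4 of 21 up, 2 down (6 without 95% array 3) and a median of 0.04 (0.13 without 95% array 1 and -0.07 without 95% array 3).

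The identity of the cells was checked on markers of myogenic cells. Des, Cdh15, Chrna1, Ncam1 and Itga7 exceeded the median of each of the 6 arrays. Of 11 defining markers listed, 9 were tested, 1 lay below the filter and 1 had no usable probe. Of the 9 tested, 7 rose and 1, Cav1, fell (0 without 24 h array 1 or 3 or 95% array 1 or 2). The median level of the 9 markers was 11.63, 11.73 and 11.74 in 24 h myotubes, against 10.12, 10.27 and 9.75 in 95% confluent myoblasts. Osteoblast, adipocyte, endothelial and macrophage markers lay nearer the array median: the median level was 6.78 to 6.88 at 24 h and 6.79 to 7.05 at 95% confluence for 5 of 12 osteoblast markers, and 6.88 to 6.9 and 7.25 to 7.4 for 6 of 12 adipocyte markers. It was 6.69 to 6.73 and 6.68 to 6.74 for 7 of 12 endothelial markers, and 6.76 to 6.79 and 6.76 to 6.83 for 4 of 14 macrophage and leukocyte markers, the other markers lying below the filter or having no probe. Defining markers such as Adipoq, Cdh5 and Ptprc lay below the filter.

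The 5 tested neural markers (14 listed) lay higher, with a median level of 7.92 to 8.11 in 24 h myotubes, against 8.2 to 8.69 in 95% confluent myoblasts. Of them 2 rose (1 without 24 h array 1 or 3, 95% array 1 or 2 or 48 h array 1) and 1 fell (2 without 95% array 2). Map2, a microtubule protein, stood at 9.68, 9.55 and 9.75 against 8.61, 8.69 and 8.20 (1.16 ± 0.11, and 0.52 with its probes averaged), Mbp rose by 0.14 (-0.11 with its probes averaged), and Nefm fell by 1.21 ± 0.13, at 7.92, 8.11 and 7.99 in 24 h myotubes, against 9.16, 8.94 and 9.54 in 95% confluent myoblasts. Plin4, an adipocyte lipid droplet protein, fell by 0.90 and Cd14, of monocytes, by 0.62. Of the 5 tested osteoblast markers, Bglap2 rose (not without 24 h array 2 or 3, or with the 6 arrays alone) and Phex fell (not without 95% array 1). Changes in that list lay between -0.274 and 0.375. Of 13 reference genes, 5 fell and none rose, with a median of -0.20. Tbp fell by 0.36, while Gapdh and Eef1a1 (-0.01, adjusted p = 0.952) did not pass.

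The changes of the first day were then set against the contrast of 48 h myotubes with 50% confluent myoblasts. The group means of these contrasts share no array. All 12 arrays, however, set the shared spread, the filter on dim probes and the choice of each gene's probe. The 48 h and 50% arrays thus had a part in which genes were called. Of the 280 genes raised at least 2-fold on the first day, 264 (94.3%) also rose at 48 h against 50% confluence, and 5 fell. Of all genes tested, 26.5% rose in that contrast. Of the 84 lowered at least 2-fold, 73 (86.9%) also fell and 4 rose, where 29.9% of all genes fell. The genes changed at least 2-fold in both contrasts numbered 251 up, which is 89.6% of the first-day genes and 37.7% of the 666 genes raised at least 2-fold over the whole course. Downward they numbered 61, which is 72.6% of the first-day genes and 9.2% of the 662 lowered at least 2-fold over the course. First-day genes thus made up a larger share of the rises than of the falls of the whole course.

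Replication and mitosis genes had moved further over the whole course. Over it, 44 of the 45 tested genes of each list fell, with medians of -1.66 for replication and -1.51 for mitosis, against medians of -0.59 and -0.50 on the first day. For thick filament genes the medians were 2.96 over the course and 1.43 on the first day. Sterol genes had medians of 1.22 and 0.60.

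The change of the first day was also tested against that of the second (48 h against 24 h myotubes) in the same fit. These contrasts share the 24 h arrays, so an error on those arrays enters them with opposite signs. The first-day change was the more positive for 1538 genes (12.9%) and the more negative for 1913 (16.1%). For some muscle structural genes most of the recorded rise came early. Acta1 rose by 5.87 on the first day and changed by 0.40 on the second, which did not pass, and Mylpf by 6.52 and 0.45. At 24 h these genes already stood close to the highest value of every array, 15.3, so a further large rise could not have been recorded. Ttn, which averaged 9.88 at 24 h, rose by 2.91 on the first day and 3.75 on the second (difference -0.84, adjusted p = 0.00844, limma). Mef2c went on at a like pace, with 1.36 and 1.69 (adjusted p of the difference = 0.212), and Ckm rose by 3.30 and 2.24. Myod1 changed by 0.60 and 0.85, a difference that did not pass (adjusted p = 0.163). Id3, level on the first day, fell by 1.69 on the second.

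Some genes turned back on the second day. Of genes up on the first day 20.7% fell on the second, where 22.1% of all genes tested fell. Of genes down on the first day 22.2% rose on the second, where 22.8% of all genes tested rose. Turning back was thus no more common than such changes among all genes. The genes that follow were chosen because their changes on the days opposed. The imprinted hydrolase family member Mest averaged 6.79, 7.63, 10.58 and 9.91 in 50% confluent myoblasts, 95% confluent myoblasts, 24 h myotubes and 48 h myotubes. The heparin-binding growth factor Ptn averaged 8.39, 8.44, 11.06 and 9.71 at these stages, and the transcription factor Osr2 averaged 6.57, 6.66, 8.72 and 7.55. These levels peaked at 24 h. In the other direction, Neat1 averaged 10.58, 9.91, 8.44 and 11.03, Wnt10a 9.24, 10.38, 8.51 and 9.31, and Deptor, an inhibitor of mTOR, 9.55, 9.98, 8.96 and 10.33. Each was at its lowest at 24 h.

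**Figure D5:**
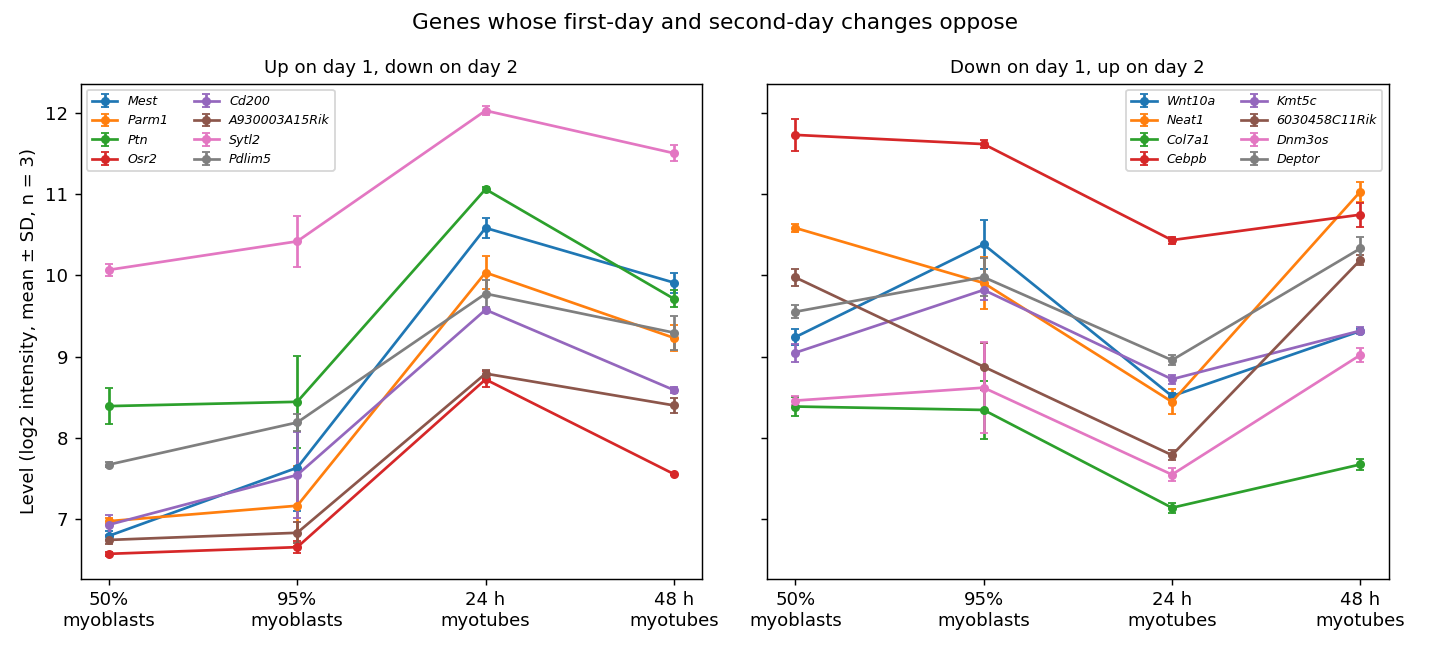
Mean level (log2 intensity, vertical axis) with SD bars (n = 3 arrays) at the 4 stages in order, for the 8 genes with the largest first-day rise among those that fell on the second day (left) and the 8 with the largest first-day fall among those that then rose (right). Ptn stands at 11.06 at 24 h, above 8.44 at 95% confluence and 9.71 at 48 h, and Neat1 at 8.44, below 9.91 and 11.03.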

How the data were processed

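Illumina bead arrays were hybridised with biotin-labelled cRNA, per the labels. The authors deposited normalized values that were taken as log2 intensities. RMA and lumi are named in the submitters' processing notes; the log base and any variance stabilisation are not given in the sources used here, so fold changes of dim genes may be understated. Once sorted, the deposited columns are equal within 0.003. A deposited table of signal intensity before normalization was left out, since its 24 columns of per-sample values match no label. Precision is limited by the number of arrays.

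Of 45281 probes, 34885 had 1 gene, 18 several and 10378 none, and 34807 were named by gene identifier. The 19403 named probes that exceeded their array's median on every array of some group were kept. Each of 11883 genes was read by its brightest kept probe, and 4848 had a second. A gene dim in 1 group could pass through another: 20 of the 280 genes raised at least 2-fold lay below the median on all 95% arrays. The 12 arrays were fitted together in limma 3.58.1 (R 4.3.3) with 8 residual and 3.59 prior degrees of freedom. Tests were 2-sided, p-values were Benjamini-Hochberg adjusted over all genes, and ± is the SE of the fit. That fit takes 1 spread for all groups, so an SE involving the more variable 95% arrays can be too small. The code was tested on simulated data.

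Named genes are the 15 largest called rises and falls with no overlap between groups, 12 fixed genes (Id3, Mki67, Ccnd1, Cdkn1a, Ckm, Acta1, Myh3, Pax7, Mef2c, Myf5, Myog and Myod1), up to 4 genes a list in its main direction and 2 in the other, and 8 genes each way whose days opposed. Further list members, including every one named as not passing, fall outside this rule and were picked with their values known. Lists and genes were chosen with earlier results of these data known. RefSeq promoters (GRCm38.p6) were matched by symbol. The labels do not say whether replicate numbers pair the samples, and they were not used as pairs. Deviations of same-numbered 24 h and 95% arrays correlated at 0.088, -0.019 and 0.053. For same-numbered 95% and 50% arrays the values were 0.333, -0.091 and 0.241. Alternatives tried were other filters, probe averaging, the 6 arrays alone, trend and robust priors, array weights, centring, a replicate block, a stricter threshold and leaving out each array.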

Additional observations from a re-analysis of the deposited data

Results flagged for a closer look

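Among genes that passed on each day with changes that ran opposite ways, the 8 with the largest first-day rise and the 8 with the largest first-day fall are given. They are not all such genes. Every such gene also differed in the fit's own test of the days, so that test removed none and adds no support. All contrasts named here share the 24 h arrays, and no explanation was tested. The value given is the first-day change minus the second-day change on the log2 scale. Among genes that rose and then fell, it was 3.62 for Mest, 3.67 for Parm1, 3.97 for Ptn, 3.23 for Osr2 and 3.02 for Cd200. It was 2.35 for A930003A15Rik, 2.13 for Sytl2 and 2.07 for Pdlim5. Ptn, the largest of these, rose by 2.62 on the first day and fell by 1.35 on the second. Osr2 was the most even, at 8.61, 8.77 and 8.78 in 24 h myotubes, against 6.72, 6.67 and 6.57 in 95% confluent myoblasts.

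Among genes that fell and then rose, the difference was -2.67 for Wnt10a, -4.05 for Neat1, -1.74 for Col7a1, -1.50 for Cebpb and -1.70 for Kmt5c. It was -3.49 for 6030458C11Rik, -2.54 for Dnm3os and -2.40 for Deptor. Neat1, a long noncoding RNA that builds nuclear paraspeckles, fell by 1.46 on the first day and rose by 2.59 on the second. Dnm3os, a noncoding RNA, was the least even on the 95% arrays, at 7.645, 7.497 and 7.503 in 24 h myotubes, against 8.52, 9.22 and 8.12 in 95% confluent myoblasts. With the usable probes of each gene averaged, the first-day change was smaller by over 1.5 times for Sytl2 (0.66), Pdlim5 (0.67), 6030458C11Rik (-0.43), Col7a1 (-0.80) and Dnm3os (-0.65).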

How the results depend on the processing

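With each array left out in turn, 3578 to 4679 genes passed on the first day, 1563 to 2019 up and 2015 to 2660 down, of which 238 to 315 rose and 62 to 109 fell by at least 2-fold. The first-day change was the more positive for 1047 to 2052 genes and the more negative for 1378 to 2362, and at an adjusted p under 0.01 for 898 and 1238. Of the 2-fold genes, 230 to 297 also rose and 49 to 97 also fell in 48 h myotubes against 50% confluent myoblasts. With the replicate block 4452 genes passed, 1914 up and 2538 down, though the labels do not say that the numbers pair the samples. The 6 arrays alone gave 3272 calls, a threshold of 0.01 gave 3037, and probe averaging gave 4508, of which 4114 were shared and 4109 of those kept their direction. With their probes averaged, Kif23 reversed to -0.17 and Mbp to -0.109. The other reversals were of genes that did not pass. With array weights they were Egr1 (-0.29), Fos (-0.11), Id3 (0.17) and Pvalb (-0.12). With each array left out in turn, values spanned 0 for 10 genes that did not pass: -0.004 to 0.088 for Chrne, -0.028 to 0.011 for Eef1a1, -0.218 to 0.491 for Egr1, -0.19 to 0.123 for Fbxo32, -0.007 to 0.716 for Fos, -0.202 to 0.312 for Id1, -0.483 to 0.059 for Id2, -0.13 to 0.227 for Id3, -0.032 to 0.027 for Neb and -0.128 to 0.297 for Pvalb. List medians moved by over 1.5 times with the filter on dim probes for several muscle lists. With no filter they were 1.523 for the thin filament, 0.18 for channels, 0.276 for the dystrophin complex and costamere and 0.202 for ubiquitin ligases. At a level of at least 7.5 they were 0.88 for channels, 1.196 for the dystrophin complex and costamere, and 1.151 for the creatine kinase list. At the same level they were 1.084 for CDK inhibitors, 0.905 for Notch and 0.597 for myogenic factors. With probes averaged the calcium list was at 1.023 and myogenic factors at 0.089. At that level the TGF-beta median turned to 0.068 and the fusion median to 0.165. The causes were not tested. Normexp on the table before normalization was not run, since its columns match no label, and no endothelial marker was left at a level of 7.5.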
